A study of Mus musculus with 12 samples.

Results

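The 40 genes described here encode the transporters and enzymes that carry glucose through glycolysis, the pentose phosphate pathway and the tricarboxylic acid (TCA) cycle, together with the transcription factor Hif1a. They were selected by gene name, with earlier results of these data known. All 40 were among the 24421 gene symbols counted, and all 40 were among the 11468 genes that passed the filter on low counts. Their counts per library ran from 2 to 36784, and no member was at 0 in any library.

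The RNA came from macrophages grown from the bone marrow (BMDMs) of 3 wild-type C57BL/6 mice, labelled A, B and C. The age of these donors is not given in the sources used here. Marrow cells from femurs and tibias were grown for 5 days in 100 ng/mL M-CSF, the growth factor that drives macrophage differentiation, and the medium was changed on day 3. Cells of every mouse then received either 5.0 µM I-BET151 (iBET) or DMSO, the solvent (5% per the labels), together with soluble ovalbumin alone (Ova) or ovalbumin bound by IgG in an immune complex (IC), for 4 h. This gave 3 libraries in each of 4 groups, called DMSO Ova and iBET Ova without, and DMSO IC and iBET IC with, the immune complex. Per the labels drug and stimulus were simultaneous, but in the study's methods the drug came first, so their order is uncertain. The solvent share in these cultures is uncertain too. The study's methods give 5% DMSO for the solution injected into mice, and only a diluted DMSO stock for cultures. Whether cells were sorted before lysis is uncertain, since the study's methods describe lysis of cultured cells and give no sort or gate for them.

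Glycolysis splits glucose into pyruvate in the cytosol, with its main control at the phosphofructokinase step, and lactate dehydrogenase and the lactate transporters dispose of the product when it is not sent to mitochondria. Pyruvate dehydrogenase feeds the remainder into the TCA cycle, and the pentose phosphate pathway branches off early to make NADPH and ribose. Macrophages that meet inflammatory stimuli are known for raising glycolysis, a programme in which HIF-1 alpha, the product of Hif1a, induces many glycolytic genes. I-BET151 blocks the bromodomains of BET proteins, which read acetylated histones at active genes, and immune complexes engage the Fc gamma receptors of macrophages.

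The libraries held 7.55 M to 17.4 M counts. In 11 of them the ribosomal precursor Rn45s took 1.41% to 7.83% of the counts, whereas in the library of group DMSO Ova and mouse A (DMSO Ova mouse A) it took 77.4%, and other genes had 1.77 M counts there against 7.25 M to 16.9 M elsewhere. The calls with iBET in Ova are therefore also given without it. Where mouse was added as a block, only the number of such calls without it is given. The 9 macrophage markers were all expressed, with a summed level of 6464 to 8657 CPM (TMM-normalised counts scaled to a common library size). The summed levels of markers of other cells were 9.76 to 56.3 CPM for neutrophils and their precursors, 1.08 to 4.43 CPM for T cells, 0.226 to 1.33 CPM for B cells (Pax5 at 0), 0.514 to 1.55 CPM for dendritic cells, at most 2.57 CPM for stromal cells and at most 0.338 CPM for erythroid cells (5 of 6 markers at 0), and the 4 mast cell and basophil markers were at 0. Some of these sums moved with the drug. The macrophage sum was 6464 to 7361 CPM in DMSO IC and 7897 to 8597 in iBET IC, and overlapped in Ova (6724 to 7814 and 7297 to 8657). The dendritic cell sum was 0.667 to 1.18 CPM in DMSO IC and 1.20 to 1.55 in iBET IC, and overlapped in Ova (0.514 to 0.746 and 0.677 to 1.39). The B cell sum was lower with iBET, at 0.514 to 1.15 CPM in DMSO Ova against 0.226 to 0.463 in iBET Ova, and 0.757 to 1.33 in DMSO IC against 0.388 to 0.694 in iBET IC. The neutrophil sum overlapped between the drug arms under both stimuli. The part of these differences in the results below was not tested.

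In these cells the list was dominated by the lower part of glycolysis and by lactate dehydrogenase A. Ranked by mean level per kilobase of exon over the 12 libraries, the aldolase gene Aldoa came first at 444 CPM per kb, followed by Pgam1 (424 CPM per kb), Pkm (373), Eno1 (238), Pgk1 (219) and Ldha (204). The libraries of Aldoa ran from 362 to 510 CPM per kb, those of Pgam1 from 163 to 589 and those of Pkm from 275 to 474, so the order among these 3 lay within the spread between libraries. At the bottom stood Ldhb, the heart-type lactate dehydrogenase subunit, at 0.995 CPM per kb, and Pfkm, the muscle-type phosphofructokinase, at 2.23. Gapdh, the glyceraldehyde-3-phosphate dehydrogenase gene, ranked 20 of 40 at 28.7 CPM per kb. It has 79 near-identical copies elsewhere in the genome, and how reads with several alignments were counted was not stated, so its level is uncertain. The same holds for the other 9 members with near-identical copies (Gpi1, Tpi1, Pgk1, Pgam1, Eno1, Pkm, Ldha, Ldhb and Pdhb), which include most of the leading genes. A copy of Eno1 counted under its own symbol, Eno1b, averaged 683 to 1057 CPM per kb in the 4 groups, above every member, so the level and rank of Eno1 depend on how reads were divided between the pair. A further limit is that 13 members (Slc2a1, Hk1, Hk3, Gpi1, Pfkm, Pfkp, Aldoa, Tpi1, Gapdh, Pdha1, Mdh1, G6pdx and Hif1a) overlap an exon of a gene on the opposite strand, whose reads cannot be told apart from theirs without a strand setting.

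The first comparison asked what the inhibitor changed in cells given Ova alone. With iBET, 16 of the 40 members were called (adjusted p under 0.05 in edgeR's quasi-likelihood test), all of them higher. Of all genes tested, 31.3% were called, 17.1% higher and 14.2% lower, against 40.0% of the members higher and 0 lower. The median log2 fold change of the members was 0.30, against 0.02 over all genes. The 3 iBET libraries lay wholly above the 3 DMSO libraries in 22 members and wholly below them in 0, and this held in 25.2% and 19.9% of all genes. In bulk RNA, more cells that express a gene and more RNA per cell cannot be told apart.

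The same comparison in cells given IC called 17 members, 16 higher and 1 lower with iBET. Of all genes, 34.8% were called, 19.0% higher and 15.8% lower. The median log2 fold change was 0.32 in the members and -0.004 over all genes. The groups were wholly separate in 18 members that were higher and 3 that were lower, against 26.3% and 22.3% of all genes. The comparisons under Ova and IC used different libraries of the same 3 mice. A set of 14 members was called in both, out of 16 with Ova and 17 with IC, each in the same direction in both, and 36 of the 40 had the same sign in both. Gapdh and Tkt were called with Ova and not with IC, while Slc2a1, Hk2 and Pfkm were called with IC and not with Ova. Each member called moved in the same direction in 3 of 3 mice.

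**Figure D1:**
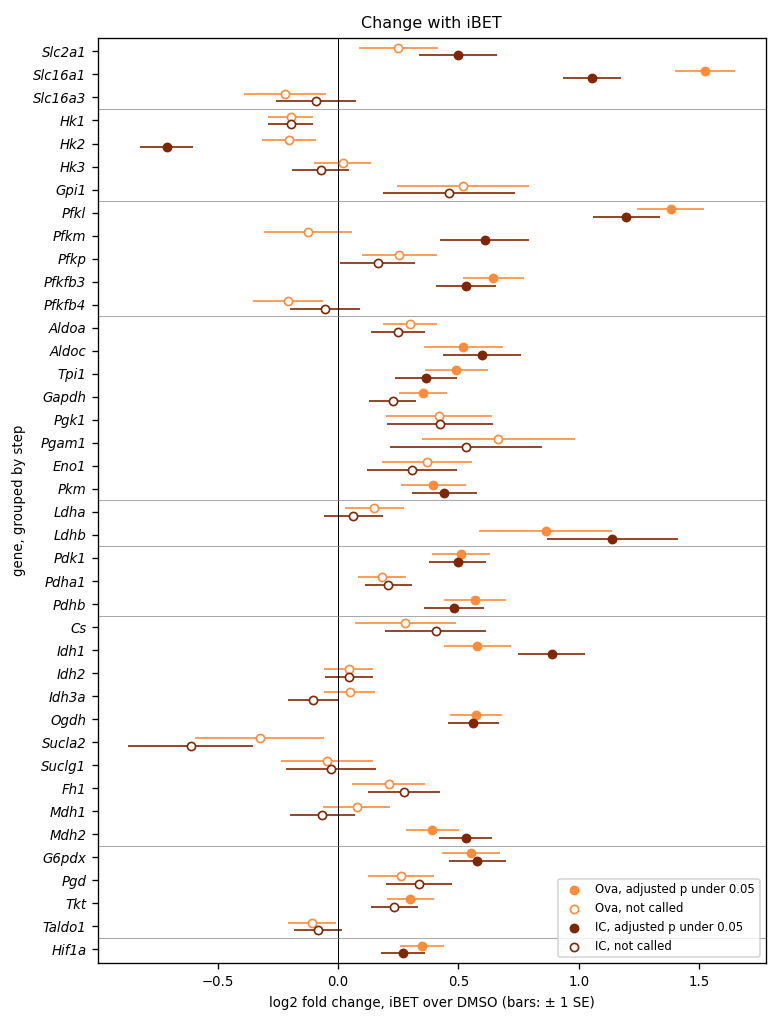
Log2 fold change of each of the 40 genes with iBET over DMSO (x axis, log2 scale, with bars of 1 SE), in Ova (light) and IC (dark), grouped by step; filled points are called at an adjusted p under 0.05 and open points are not. Slc16a1 and Pfkl stand farthest to the right in Ova, and Pfkl, Ldhb and Slc16a1 in IC, Hk2 is the one member called lower, and most points lie to the right of 0.

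**Figure D2:**
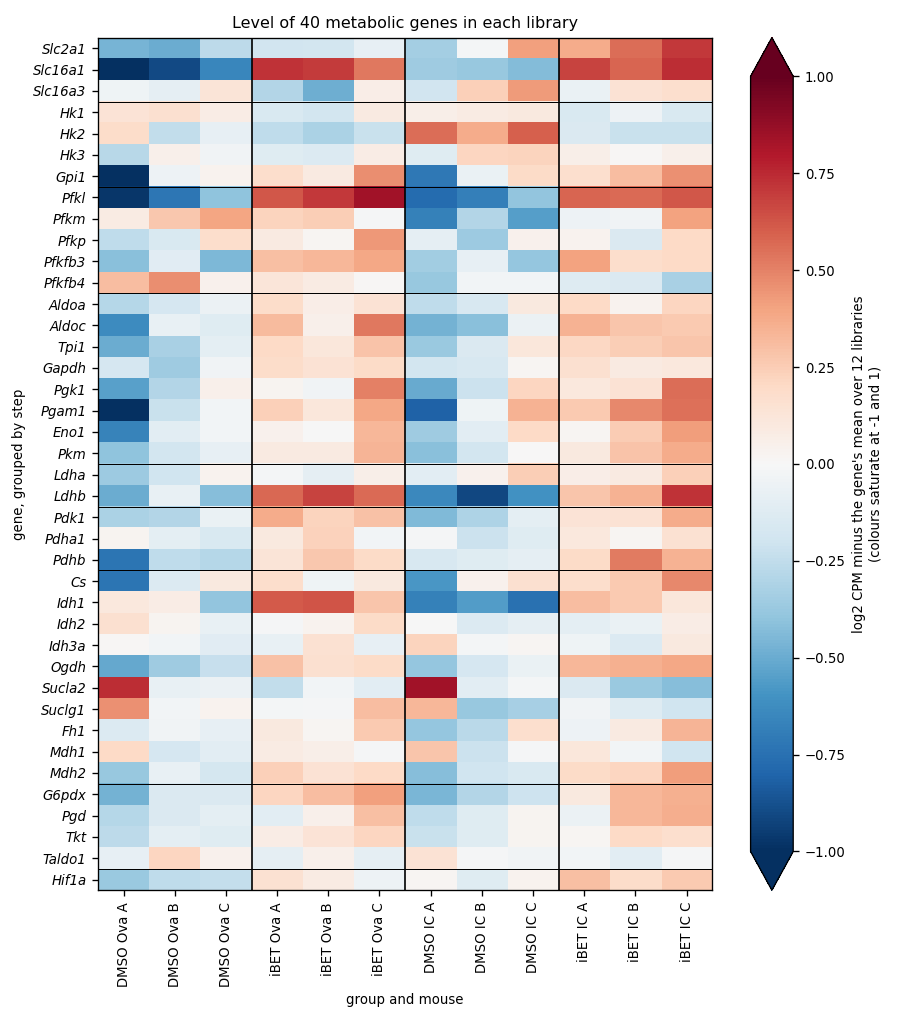
Level of each gene (rows, grouped by step) in each library (columns, 4 groups of mice A, B and C), as log2 CPM minus the gene's mean over 12 libraries, with colours saturating at -1 and 1. Rows such as Slc16a1, Pfkl and Ldhb change between the DMSO and iBET blocks, while Gpi1, Pgam1 and Sucla2 are marked by the DMSO libraries of mouse A.

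Among transporters, Slc16a1 carried the largest rise of the list with Ova. It encodes MCT1, which moves lactate, pyruvate and ketone bodies across the membrane together with protons. Its level was 21.1, 26.3 and 31.3 CPM in the DMSO Ova libraries (mice A, B and C, the order used throughout) and 81.3, 79.8 and 71.0 CPM with iBET. With IC it was 38.5, 37.9 and 36.5 CPM in DMSO and 78.7, 73.7 and 82.1 CPM with iBET. The drug arms did not overlap under either stimulus, and every iBET library stood at or above 71.0 CPM. The log2 fold change was 1.53 ± 0.12 (SE, n = 3, adjusted p = 4.24e-06 in edgeR) with Ova and 1.06 ± 0.12 (adjusted p = 3.99e-05) with IC, which are 2.88-fold and 2.08-fold. Both calls held without any single library or mouse.

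Slc16a1 lies at chr3:104638668-104658462 on the plus strand of GRCm38. Its promoter is shown because it holds, in one window, every kind of match searched other than AP-1. The window of Ldha, which was not called with iBET, holds the same kinds of match. The RefSeq window on GRCm38.p6 spans 250 bases before to 50 bases after the start, at chr3:104638414-104638713 on the plus strand. Capitals mark ACGTG, the core of the hypoxia response element, or GGGCGG, the GC box, on either strand, and the first run of capitals is the E-box CACGTG, which reads ACGTG on both strands.
Slc16a1: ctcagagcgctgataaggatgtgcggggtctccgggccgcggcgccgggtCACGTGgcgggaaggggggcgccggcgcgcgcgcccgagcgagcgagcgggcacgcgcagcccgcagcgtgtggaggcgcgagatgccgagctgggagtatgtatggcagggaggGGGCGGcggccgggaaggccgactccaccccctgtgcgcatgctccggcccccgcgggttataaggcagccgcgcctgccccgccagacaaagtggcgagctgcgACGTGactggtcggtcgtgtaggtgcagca

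The other transporters differed from it. Slc16a3, which encodes MCT4, a lactate exporter of glycolytic cells, stood at 52.9, 51.2 and 59.7 CPM in DMSO Ova, 44.7, 38.9 and 57.2 in iBET Ova, 47.8, 64.6 and 73.2 in DMSO IC and 52.3, 60.5 and 61.4 in iBET IC. The drug arms overlapped under both stimuli and it was not called. Slc16a1 made up 36.4% ± 3.49 (SD, n = 3) of the length-scaled level of the pair in DMSO Ova and 66.5% ± 5.92 in iBET Ova, and 42.6% ± 5.95 and 61.8% ± 2.48 with IC. Slc2a1, the glucose transporter GLUT1, was at 70.9, 69.5 and 81.6 CPM in DMSO Ova, 85.7, 86.0 and 92.7 in iBET Ova, 77.3, 96.6 and 130.2 in DMSO IC and 126, 144 and 159 in iBET IC. The IC arms overlapped, because the DMSO library of mouse C exceeded the iBET library of mouse A. Slc2a1 was called with IC (log2 0.50 ± 0.16, adjusted p = 0.0298) and not with Ova (0.25 ± 0.16, adjusted p = 0.275). The IC call was lost in 4 of the 12 fits that left out 1 library, reaching an adjusted p of 0.115 when DMSO IC mouse A was left out, and it was lost without mouse B (adjusted p = 0.242).

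Hexokinases trap glucose in the cell by phosphorylating it, and Hk2 was the 1 member called lower with the inhibitor. It read 59.6, 44.3 and 49.5 CPM in DMSO Ova, 44.0, 42.2 and 45.0 in iBET Ova, 77.2, 68.0 and 79.6 in DMSO IC and 47.4, 44.9 and 44.9 in iBET IC. The 3 DMSO IC libraries were the highest of the 12, and the other 9 lay between 42.2 and 59.6 CPM. The log2 fold change with iBET was -0.71 ± 0.11 with IC (adjusted p = 0.000378), a call that held without any library or mouse. With Ova it was -0.20 ± 0.11 (adjusted p = 0.193).

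Hk2 lies at chr6:82725025-82774454 on the minus strand. Its promoter is shown as that of the 1 member called lower, with matches marked as above (chr6:82774405-82774704, minus strand). It holds 2 matches to ACGTG and 3 to GGGCGG.
Hk2: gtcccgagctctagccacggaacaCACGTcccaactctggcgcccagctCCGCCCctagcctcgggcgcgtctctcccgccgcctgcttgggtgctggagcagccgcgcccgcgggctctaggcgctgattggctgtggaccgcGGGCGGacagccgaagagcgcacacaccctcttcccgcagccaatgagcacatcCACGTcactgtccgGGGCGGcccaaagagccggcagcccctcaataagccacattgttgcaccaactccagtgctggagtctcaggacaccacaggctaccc

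The other hexokinases were not called. Hk1, the broadly expressed isoform, stood at 129, 132 and 124 CPM in DMSO Ova, 106, 104 and 126 in iBET Ova, 123, 125 and 126 in DMSO IC and 106, 114 and 106 in iBET IC. Hk3, an isoform of myeloid cells, stood at 112, 140.4 and 132 CPM in DMSO Ova, 125, 124 and 143 in iBET Ova, 125, 158 and 159 in DMSO IC and 142, 137 and 141 in iBET IC. Per length, Hk3 made up most of the family in all 12 libraries, from 54.7% to 65.7%. The share of Hk2 was 18.8% ± 2.30 in DMSO IC and 13.1% ± 0.332 in iBET IC. Gpi1, which isomerises glucose 6-phosphate, was low in both DMSO libraries of mouse A, at 226 and 282 CPM against 442 to 531 CPM in the DMSO libraries of mice B and C and 492 to 639 with iBET. It was not called, and with mouse as a block it was called higher in Ova (log2 0.58, adjusted p = 0.0252) and IC (0.51, adjusted p = 0.0378).

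At the phosphofructokinase step the isoenzymes differed. Pfkl, the liver-type subunit of the enzyme that commits sugar to glycolysis, measured 33.4, 39.8 and 49.7 CPM in DMSO Ova and 101, 107 and 118 CPM in iBET Ova. With IC it was 38.5, 40.8 and 49.9 CPM in DMSO and 98.2, 97.3 and 101 CPM with iBET. No DMSO library exceeded 49.9 CPM and no iBET library fell under 97.3 CPM. The log2 fold change was 1.38 ± 0.14 with Ova (adjusted p = 1.98e-05) and 1.20 ± 0.14 with IC (adjusted p = 4.35e-05), or 2.61-fold and 2.29-fold, and both calls held without any library or mouse.

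Pfkl lies at chr10:77986947-78010083 on the minus strand. Its promoter, shown as that of the member with the largest rise in IC, spans chr10:78009758-78010057 on the minus strand and holds 3 matches to GGGCGG, of which the last 2 overlap by 1 base, and 0 to ACGTG.
Pfkl: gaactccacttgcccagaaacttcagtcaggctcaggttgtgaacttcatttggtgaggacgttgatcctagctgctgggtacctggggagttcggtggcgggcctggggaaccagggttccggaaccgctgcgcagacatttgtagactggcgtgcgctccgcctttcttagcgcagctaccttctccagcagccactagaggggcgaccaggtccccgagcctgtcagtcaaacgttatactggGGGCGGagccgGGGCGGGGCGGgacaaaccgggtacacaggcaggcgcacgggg

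The platelet-type subunit Pfkp changed less than Pfkl, though within each mouse its iBET library was the higher under both stimuli. It stood at 150.5, 161 and 202 CPM in DMSO Ova, 191, 181 and 242 in iBET Ova, 168, 139 and 185 in DMSO IC and 184, 162 and 206 in iBET IC, with overlapping arms. It was not called, and with the mouse block it was called in Ova alone (log2 0.25, adjusted p = 0.0464). The muscle-type Pfkm was scarce, at 7.70, 8.74 and 9.53 CPM in DMSO Ova, 8.49, 8.60 and 7.22 in iBET Ova, 4.54, 5.94 and 4.96 in DMSO IC and 6.99, 7.07 and 9.59 in iBET IC. The DMSO IC libraries were the lowest of the 12. With iBET its log2 fold change was 0.61 ± 0.18 in IC (adjusted p = 0.0215) and -0.12 ± 0.18 in Ova (adjusted p = 0.649). The IC call was lost in 3 of 12 fits without 1 library, reaching an adjusted p of 0.103 when DMSO IC mouse A was left out, and it was lost without each mouse in turn (adjusted p = 0.0722, 0.0782 and 0.198).

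Scaled by length, Pfkl made up 28.4% ± 1.27 (SD, n = 3) of the phosphofructokinase transcripts in DMSO Ova and 48.0% ± 1.80 in iBET Ova, and 31.9% ± 2.21 and 48.1% ± 2.60 with IC. Pfkp stood at 59.4% ± 1.13 in DMSO Ova, 44.8% ± 2.88 in iBET Ova, 60.4% ± 3.45 in DMSO IC and 44.3% ± 2.05 in iBET IC. Its share was the larger in every DMSO library and was below that of Pfkl in 4 of 6 iBET libraries, the exceptions being those of mouse C. The Pfkl and Pfkp shares did not overlap between drug arms. Over the 7 isoenzyme families 22 shares were compared in all, and the arms were separate in 9 of 11 with Ova and 9 of 11 with IC. By level, 25.2% of all genes were wholly higher and 19.9% wholly lower with iBET in Ova, and 26.3% and 22.3% in IC. Shares of other gene families were not computed. The hexokinase shares depend on each other, as do the phosphofructokinase shares, since a rise in any share lowers the rest together. The genes were also chosen with earlier results of these data known. Each separate share reached p = 0.1 in a two-sided exact permutation test, the smallest p that 3 against 3 allows (0.122 when adjusted over the 22), so this design cannot reach 0.05.

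**Figure D3:**
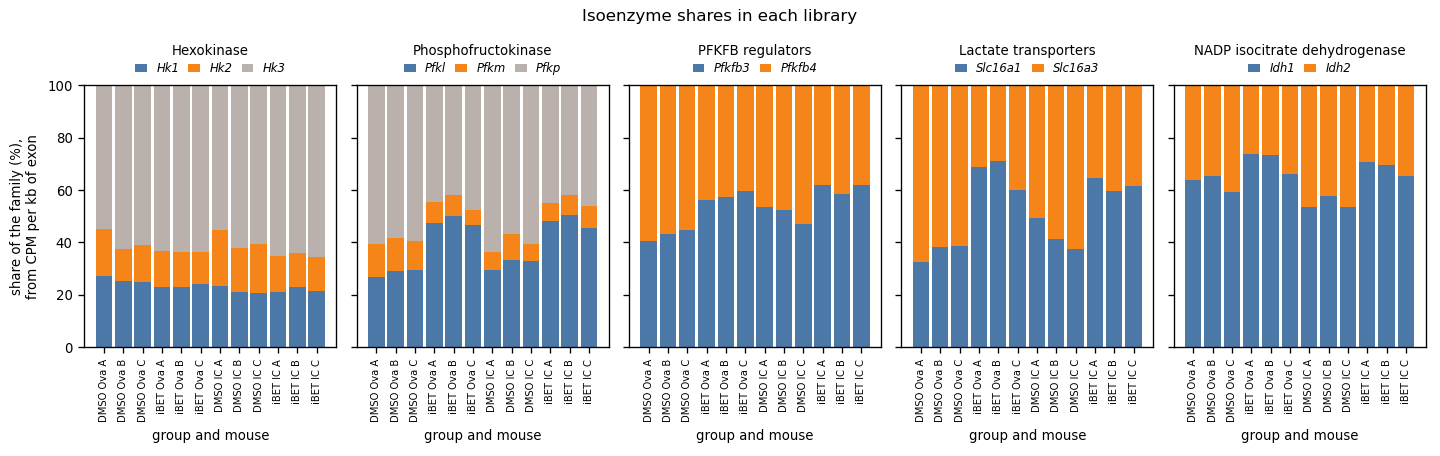
Share of each isoenzyme (y axis, percent of the family's CPM per kb of exon) in each library (x axis, groups of mice A, B and C) for 5 families, as stacked bars that sum to 100%. The Pfkl share is between 27.0% and 33.5% in the DMSO libraries and between 45.4% and 50.6% in the iBET libraries, and the Hk3 share is the largest hexokinase share in every library.

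The bifunctional PFKFB enzymes set the level of fructose 2,6-bisphosphate, the main activator of phosphofructokinase. Pfkfb3, the isoform with the highest kinase activity, measured 25.2, 31.1 and 24.6 CPM in DMSO Ova, 41.4, 42.3 and 44.0 in iBET Ova, 26.3, 31.7 and 25.7 in DMSO IC and 44.3, 37.9 and 38.6 in iBET IC. All 6 iBET libraries lay above all 6 DMSO libraries. Its log2 fold change was 0.65 ± 0.13 in Ova (adjusted p = 0.00221) and 0.53 ± 0.12 in IC (adjusted p = 0.00547). Both calls held without any single library, the Ova call was lost without mouse C (adjusted p = 0.0671), and the IC call was lost without mouse A (0.0542) or C (0.0647). Pfkfb4 stood at 23.6, 26.2 and 19.6 CPM in DMSO Ova, 20.7, 20.2 and 19.2 in iBET Ova, 14.6, 18.7 and 18.7 in DMSO IC and 17.5, 17.2 and 15.2 in iBET IC, and was not called. The Pfkfb3 share of the pair was 42.9% ± 2.02 in DMSO Ova, 57.8% ± 1.69 in iBET Ova, 51.0% ± 3.50 in DMSO IC and 60.9% ± 1.99 in iBET IC.

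From aldolase to pyruvate kinase, where the carbon is split and ATP is made, the fitted change with iBET was positive in 8 of 8 genes under both stimuli, but smaller in each than that of Pfkl. With Ova 4 of the 8 were called higher (Aldoc, Tpi1, Gapdh and Pkm), and with IC 3 of the 8 (Aldoc, Tpi1 and Pkm), with medians of 0.41 and 0.39 on the log2 scale. Of all genes, 17.1% were called higher in Ova and 19.0% in IC. Pkm, the pyruvate kinase of macrophages, measured 1389.8, 1618 and 1735 CPM in DMSO Ova, 1958, 1961 and 2324 in iBET Ova, 1377, 1616 and 1847 in DMSO IC and 1963, 2237 and 2371 in iBET IC. The arms were separate under both stimuli. Its log2 fold change was 0.40 ± 0.13 in Ova (adjusted p = 0.0414) and 0.44 ± 0.13 in IC (adjusted p = 0.0232).

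Tpi1, which interconverts the triose phosphates, measured 178, 201 and 235 CPM in DMSO Ova, 288, 271 and 306 in iBET Ova, 194, 227 and 271 in DMSO IC and 289, 297 and 304 in iBET IC. The iBET libraries were the higher under each stimulus, by log2 0.49 ± 0.13 in Ova (adjusted p = 0.0129) and 0.37 ± 0.13 in IC (adjusted p = 0.045). Gapdh measured 105, 92.4 and 115 CPM in DMSO Ova, 134, 130.4 and 135 in iBET Ova, 104, 106 and 119.5 in DMSO IC and 132, 126 and 127 in iBET IC. The arms were separate under both stimuli, and the log2 fold change was 0.35 ± 0.10 in Ova (adjusted p = 0.017) and 0.23 ± 0.10 in IC (adjusted p = 0.0929, not called).

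Of the aldolases, Aldoa was at 1053, 1140.0 and 1231 CPM in DMSO Ova, 1454, 1340.4 and 1419 in iBET Ova, 1074, 1145 and 1374 in DMSO IC and 1469, 1315 and 1485 in iBET IC. It was not called (log2 0.30 ± 0.11, adjusted p = 0.0599 in Ova, and 0.25 ± 0.11, adjusted p = 0.104 in IC), and it was called under both with the mouse block (adjusted p = 0.0235 and 0.046). Aldoc, the brain-type aldolase, was at 19.0, 27.9 and 26.9 CPM in DMSO Ova, 36.5, 30.3 and 42.2 in iBET Ova, 21.1, 22.0 and 28.2 in DMSO IC and 37.3, 35.6 and 35.1 in iBET IC. It was called in Ova (log2 0.52 ± 0.17, adjusted p = 0.0308) and in IC (0.60 ± 0.16, adjusted p = 0.0127). Per length Aldoa still made up 97.4% to 98.4% of the pair in every library.

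Pgk1, Pgam1 and Eno1, the phosphoglycerate kinase, phosphoglycerate mutase and enolase genes, varied between mice within each group as well as with the drug. Pgk1 measured 328, 392 and 497 CPM in DMSO Ova, 487, 466 and 679 in iBET Ova, 337, 412 and 556 in DMSO IC and 516, 529 and 704 in iBET IC, highest in mouse C in each of the 4 groups. Pgam1 measured 323, 682 and 781 CPM in DMSO Ova, 939.6, 861 and 1041 in iBET Ova, 453, 773 and 1012 in DMSO IC and 955, 1109.7 and 1167 in iBET IC. Eno1 measured 791, 1173 and 1236 CPM in DMSO Ova, 1298, 1253 and 1588 in iBET Ova, 983, 1169 and 1447 in DMSO IC and 1277, 1499.9 and 1677 in iBET IC. Within each mouse the iBET library was the higher, and none of the 3 genes was called without the block. With mouse as a block, Pgk1 was called in Ova (log2 0.42, adjusted p = 0.00291) and IC (0.44, adjusted p = 0.00197), Eno1 in Ova (0.39, adjusted p = 0.0122) and IC (0.32, adjusted p = 0.0299), and Pgam1 in Ova alone (0.75, adjusted p = 0.0292). These fits include DMSO Ova mouse A.

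Several calls in this stretch of the pathway were lost when 1 library was left out. Without DMSO Ova mouse A, the Ova calls of Aldoc, Tpi1, Gapdh and Pkm were lost at adjusted p of 0.12, 0.0767, 0.0568 and 0.213. That of Gapdh had its highest adjusted p, 0.0774, without DMSO Ova mouse B. In IC, each of Aldoc, Tpi1 and Pkm was lost without DMSO IC mouse A (adjusted p = 0.0512, 0.197 and 0.117), and all 3 without mouse B (0.126, 0.273 and 0.209).

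**Figure D4:**
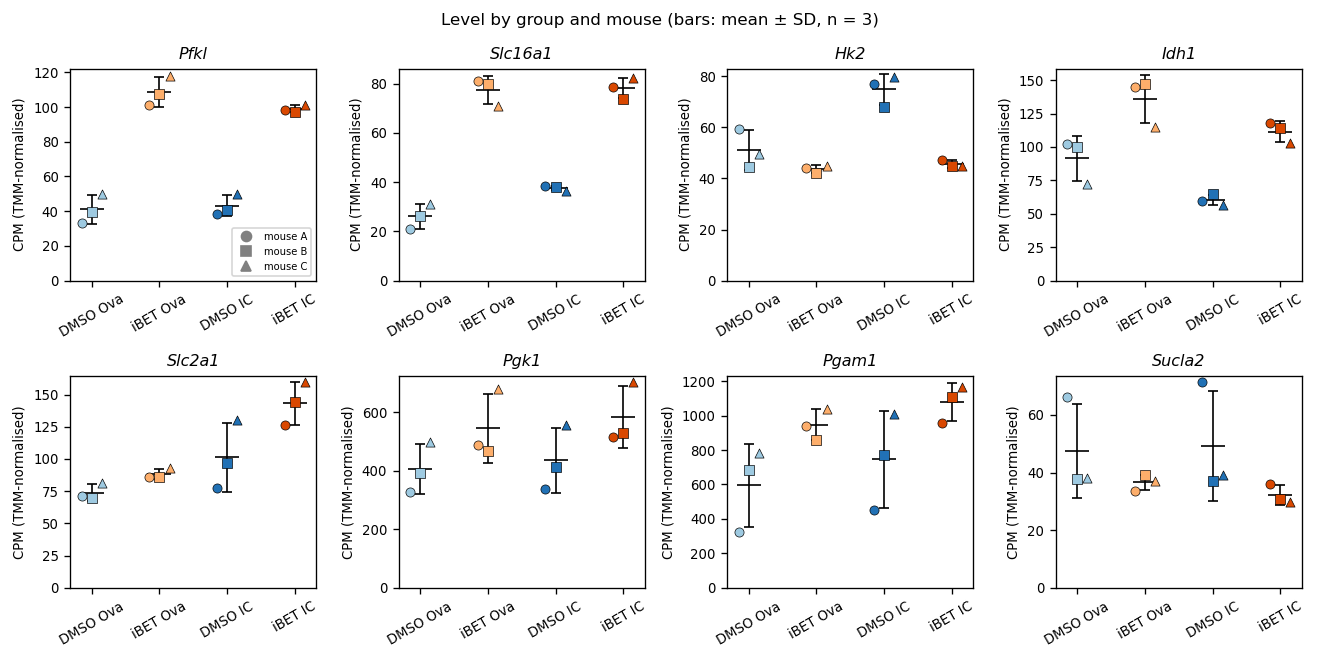
Level (y axis, TMM-normalised CPM, from 0) of 8 genes by group (x axis), with 1 point per mouse (circle A, square B, triangle C) and bars of the mean and SD of 3 libraries. Pfkl, Slc16a1 and Idh1 separate by drug within each stimulus, Hk2 is highest in DMSO IC, Pgk1 and Pgam1 are spread by mouse within each group, and Sucla2 is high in the 2 DMSO libraries of mouse A.

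Lactate dehydrogenase interconverts pyruvate and lactate, and Ldha, the subunit that prevails in glycolytic cells, was not called. It stood at 520.3, 583 and 687 CPM in DMSO Ova, 659.9, 629 and 699 in iBET Ova, 624, 691 and 794 in DMSO IC and 702, 712 and 789 in iBET IC, with overlapping arms. Ldhb measured 1.03, 1.38 and 1.08 CPM in DMSO Ova, 2.16, 2.32 and 2.14 in iBET Ova, 0.926, 0.770 and 0.953 in DMSO IC and 1.76, 1.84 and 2.40 in iBET IC. The arms were separate, and Ldhb was called in Ova (log2 0.86 ± 0.28, adjusted p = 0.0319) and in IC (1.14 ± 0.27, adjusted p = 0.00653). Ldha nevertheless held 99.2% to 99.8% of the pair in every library. The Ova call of Ldhb was lost in 7 of 12 fits without 1 library (highest adjusted p = 0.133, without DMSO Ova mouse C) and the IC call in 0 of 12, though it was lost without mouse B (0.0888) or C (0.0789).

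At the entry to the TCA cycle, Pdhb, a subunit of pyruvate dehydrogenase, and Pdk1, the kinase that inhibits that enzyme, were both higher with iBET. Pdk1 measured 37.5, 38.1 and 44.6 CPM in DMSO Ova, 60.5, 54.5 and 57.3 in iBET Ova, 34.4, 37.7 and 43.8 in DMSO IC and 51.5, 51.8 and 60.4 in iBET IC. Its log2 fold change was 0.51 ± 0.12 in Ova (adjusted p = 0.00648) and 0.50 ± 0.12 in IC (adjusted p = 0.00604). Pdhb measured 23.1, 32.2 and 31.4 CPM in DMSO Ova, 41.8, 46.1 and 43.9 in iBET Ova, 34.3, 35.2 and 36.0 in DMSO IC and 43.7, 55.0 and 48.8 in iBET IC. All DMSO libraries lay under all iBET libraries for both genes, and for Pdhb the log2 fold change was 0.57 ± 0.13 in Ova (adjusted p = 0.00505) and 0.48 ± 0.12 in IC (adjusted p = 0.0097). The other subunit gene, Pdha1, was not called. The Pdk1 calls were lost without mouse B (adjusted p = 0.114 in Ova and 0.0921 in IC), and those of Pdhb without mouse B (0.0651 and 0.165) or C (0.0589 and 0.0857).

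Within the TCA group, which includes the cytosolic isocitrate and malate dehydrogenases, 3 of 10 genes were called higher with iBET under each stimulus, against 17.1% of all genes in Ova and 19.0% in IC. These were Idh1, Ogdh and Mdh2 both times. Idh1, the cytosolic isocitrate dehydrogenase that makes NADPH, measured 102, 100.0 and 72.4 CPM in DMSO Ova, 145, 147 and 115 in iBET Ova, 59.6, 64.7 and 56.8 in DMSO IC and 118, 114 and 103 in iBET IC. The DMSO IC libraries were the lowest of all, and mouse C was the lowest of the 3 mice in each group. The log2 fold change was 0.58 ± 0.14 in Ova (adjusted p = 0.00788) and 0.89 ± 0.14 in IC (adjusted p = 0.000427). The IC call held without any library or mouse, and the Ova call was lost without mouse B (adjusted p = 0.101).

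Its mitochondrial counterpart Idh2 was not called, at 54.4, 49.5 and 46.2 CPM in DMSO Ova, 48.2, 50.0 and 55.6 in iBET Ova, 48.5, 44.3 and 45.8 in DMSO IC and 45.4, 46.5 and 51.4 in iBET IC. The Idh1 share of the pair was 62.8% ± 3.06 in DMSO Ova, 71.0% ± 4.40 in iBET Ova, 54.9% ± 2.39 in DMSO IC and 68.5% ± 2.94 in iBET IC.

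Ogdh, the catalytic subunit of 2-oxoglutarate dehydrogenase, measured 112, 125 and 137 CPM in DMSO Ova, 196, 179 and 183 in iBET Ova, 122, 142 and 153 in DMSO IC and 201, 205 and 209 in iBET IC. No DMSO library reached the lowest iBET library, and the log2 fold change was 0.57 ± 0.11 in Ova (adjusted p = 0.00148) and 0.56 ± 0.11 in IC (adjusted p = 0.0014). Mdh2, the mitochondrial malate dehydrogenase, measured 120.2, 149 and 139 CPM in DMSO Ova, 184, 173 and 179.6 in iBET Ova, 117, 137 and 141 in DMSO IC and 179, 182 and 209 in iBET IC. Its log2 fold change was 0.39 ± 0.11 in Ova (adjusted p = 0.0171) and 0.53 ± 0.11 in IC (adjusted p = 0.00258). The Mdh2 call in IC held throughout, whereas in Ova it was lost without DMSO Ova mouse A (adjusted p = 0.113), and both Ogdh calls were lost without mouse B (0.0597 and 0.0548).

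Sucla2, the ADP-forming subunit of succinyl-CoA ligase, was high in the DMSO libraries of mouse A. It read 66.3, 37.9 and 38.2 CPM in DMSO Ova, 33.6, 39.0 and 37.0 in iBET Ova, 71.4, 37.0 and 39.3 in DMSO IC and 36.1, 30.7 and 29.7 in iBET IC. Both DMSO libraries of mouse A stood above all others. Rn45s took 77.4% and 7.83% of the counts there, its 2 highest shares among the 12 libraries, and its part in the result was not tested. Sucla2 was not called (log2 -0.61 ± 0.26 in IC, adjusted p = 0.0896), and with the mouse block it was called lower in IC (-0.58, adjusted p = 0.0324). Cs, citrate synthase, was called with the block in IC (log2 0.43, adjusted p = 0.048) and was lowest in the same 2 libraries, at 85.8 and 95.5 CPM against 129.9 to 199 CPM in the others.

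The pentose phosphate pathway starts with G6pdx, glucose-6-phosphate dehydrogenase, which measured 146, 183 and 184 CPM in DMSO Ova, 236, 251 and 269 in iBET Ova, 148, 166 and 176 in DMSO IC and 217, 255 and 259 in iBET IC. All iBET libraries lay above all DMSO libraries, with a log2 fold change of 0.55 ± 0.12 in Ova (adjusted p = 0.00386) and 0.58 ± 0.12 in IC (adjusted p = 0.00246). Both calls were lost without mouse B (adjusted p = 0.0735 and 0.0814). Tkt, the transketolase gene, measured 185, 208 and 205 CPM in DMSO Ova, 234, 244 and 258 in iBET Ova, 190.3, 205 and 227 in DMSO IC and 225, 255 and 250.3 in iBET IC. It was called in Ova (log2 0.30 ± 0.10, adjusted p = 0.0348), though not without DMSO Ova mouse A (adjusted p = 0.19), and in IC only with the block (0.23 ± 0.10, adjusted p = 0.0827, and 0.0318 with the block). Pgd, the next dehydrogenase, was called higher with the block alone (log2 0.26, adjusted p = 0.0345 in Ova, and 0.33, adjusted p = 0.00879 in IC). Taldo1, transaldolase, was not called.

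Hif1a measured 281, 305 and 309 CPM in DMSO Ova, 404, 385 and 352 in iBET Ova, 370.0, 334 and 373 in DMSO IC and 449, 414 and 436 in iBET IC. Within each stimulus the arms were separate, by log2 0.35 ± 0.09 in Ova (adjusted p = 0.0123) and 0.27 ± 0.09 in IC (adjusted p = 0.0364). The Ova call was lost in 2 of 12 fits without 1 library (highest adjusted p = 0.0647, without DMSO Ova mouse A) and the IC call in 7 of 12 (0.123, without DMSO IC mouse B), and both were lost without each mouse in turn.

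Across the list, 8 of the 16 Ova calls held without DMSO Ova mouse A (Slc16a1, Pfkl, Pfkfb3, Pdk1, Pdhb, Idh1, Ogdh and G6pdx). Without mouse B, 3 of the 16 Ova calls and 6 of the 17 IC calls held, against 10 and 13 without mouse A and 7 and 12 without mouse C. The Ova calls of Aldoc, Pkm, Ldhb, Mdh2, Tkt and Hif1a were lost whichever mouse was left out. With mouse as a block, 23 members were called in Ova, all higher, and 25 in IC, 23 higher and 2 lower, which included all of those called without it. The Ova calls with the block include DMSO Ova mouse A, and fewer were called when that library was left out. Which of them held is not given here. The block also raised the share of all genes called, to 38.3% in Ova (20.4% higher and 17.9% lower) and 42.1% in IC (22.4% higher and 19.8% lower). A group of 12 members was called in neither comparison with or without the block: Slc16a3, Hk1, Hk3, Pfkfb4, Ldha, Pdha1, Idh2, Idh3a, Suclg1, Fh1, Mdh1 and Taldo1. Their log2 fold changes ran from -0.22 (Slc16a3) to 0.21 (Fh1) in Ova and from -0.20 (Hk1) to 0.27 (Fh1) in IC.

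The members also varied by mouse in a shared way. Mouse C gave the highest level of all 3 mice in each of the 4 groups for 13 of the 40 members, or 32.5%, against 7.25% of all genes. These were Slc2a1, Slc16a3, Gpi1, Pfkl, Pfkp, Tpi1, Pgk1, Pgam1, Eno1, Pkm, Ldha, G6pdx and Pgd, most of them glycolytic. Mouse A was lowest in each group for 5 members (Pkm, Pdhb, G6pdx, Pgd and Tkt), or 12.5%, against 4.01% of all genes. The 4 libraries of a mouse come from 1 animal, so these counts describe 3 animals.

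The next comparison asked what Fc gamma receptor engagement changed in the absence of inhibitor. With IC against Ova in DMSO, 1 of 40 members was called, Hk2, which rose by log2 0.57 ± 0.11 (adjusted p = 0.0325), or 1.49-fold. Of all genes, 1.22% were called, 0.732% higher and 0.488% lower. The IC and Ova libraries were wholly separate in 4 members that were higher and 4 that were lower with IC, against 7.8% and 7.47% of all genes. The Hk2 call was lost in 9 of 12 fits without 1 library, reaching an adjusted p of 0.164 when DMSO Ova mouse B was left out, and it was lost without mouse B (0.675) or C (0.463). At an unadjusted p under 0.05 stood 11.7% of all genes and 7 of the 40 members, which were Slc2a1, Slc16a1, Hk2, Pfkm, Pfkfb4, Idh1 and Hif1a. Slc16a1 had a log2 fold change of 0.48 ± 0.12 (adjusted p = 0.0962), Slc2a1 0.45 ± 0.16 (adjusted p = 0.262) and Pfkm -0.78 ± 0.19 (adjusted p = 0.0738). Idh1 had -0.59 ± 0.14 (adjusted p = 0.0729), and was called lower with mouse as a block (-0.58, adjusted p = 0.0078).

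Under iBET, IC against Ova called 0 of 40 members in edgeR, against 0.349% of all genes (0.314% higher and 0.0349% lower), with 1 member (Slc2a1) at an unadjusted p under 0.05, against 7.5% of all genes, and 1 called by DESeq2. The libraries were wholly separate in 5 members that were higher and 2 that were lower, against 9.53% and 9.34% of all genes. Slc2a1 had a log2 fold change of 0.70 ± 0.16 (adjusted p = 0.128), with no overlap between iBET Ova and iBET IC, and it was called with mouse as a block (0.69, adjusted p = 0.0108). Hk2 stood at 0.06 ± 0.11 (adjusted p = 0.946), Idh1 at -0.28 ± 0.14 (adjusted p = 0.696), Slc16a1 at 0.01 ± 0.12 and Pfkm at -0.05 ± 0.18. These comparisons share the IC libraries with those of iBET under IC, and the Ova libraries with those under Ova, so their values are not independent of the drug effects above.

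**Figure D5:**
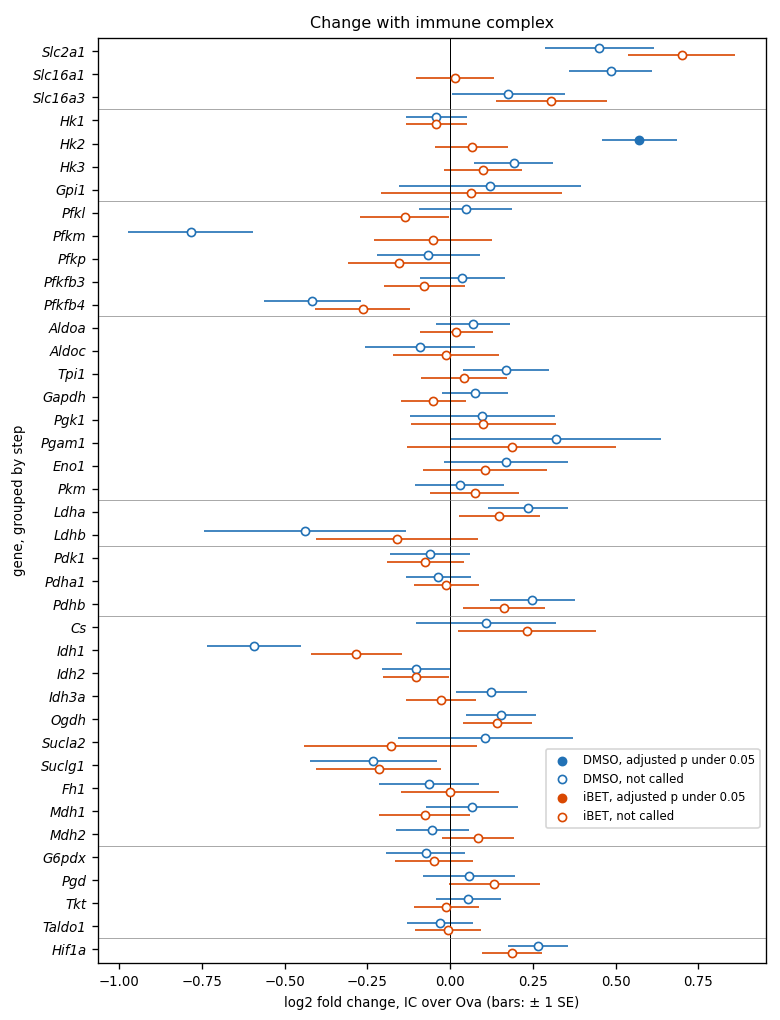
Log2 fold change of each of the 40 genes with IC over Ova (x axis, log2 scale, with bars of 1 SE) in DMSO (blue) and in iBET (orange), grouped by step; filled points are called at an adjusted p under 0.05. Hk2 in DMSO is the one filled point, Pfkm and Idh1 lie farthest to the left in DMSO, and Slc2a1 lies farthest to the right in iBET.

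Whether the IC response differed between the drug arms was tested by the interaction, in which a positive value means a response that was more positive under iBET. In edgeR 0 of 40 members and 0.0% of all genes were called, and 0 members in DESeq2. At an unadjusted p under 0.05 stood 3 members and 2.55% of all genes. The interaction was -0.51 ± 0.16 (SE) on the log2 scale for Hk2, 0.73 ± 0.26 for Pfkm and -0.47 ± 0.17 for Slc16a1, each with an adjusted p of 1.0. A difference between the arms in the response of these genes was therefore not established.

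Promoter windows were found in RefSeq for 39 of the 40 members. ACGTG occurred on either strand in 17 of the 39 (43.6%), against 19.7% of the 27025 windows of all genes, and the list of 17 included Slc2a1, Slc16a1, Hk2, Pfkfb3, Pgk1, Ldha and Hif1a. The E-box CACGTG, which contains ACGTG, occurred in 4 (10.3%, against 7.24%), namely Slc16a1, Pfkm, Ldha and Hif1a. GGGCGG occurred in 29 (74.4%, against 35.9%) and the AP-1 site TGACTCA in 0 (against 5.17%). The window of Pfkl, which rose most with iBET under IC, held 0 ACGTG, and that of Hk2, which was lower with iBET under IC, held 2. The 27025 windows were not limited to genes that passed the filter on low counts, as all members did. Whether expressed genes differ from the rest in these matches was not tested. The matches are of letters and do not show that a factor binds.

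Other genes of these pathways were taken from lists of 86 symbols, of which 72 were tested. These lists were also chosen with earlier results of these data known. With iBET 26 of the 72 were called higher and 5 lower in Ova, and 23 higher and 4 lower in IC. Over all genes 17.1% were higher and 14.2% lower in Ova, and 19.0% and 15.8% in IC, against 36.1% and 6.94%, and 31.9% and 5.56%, of the 72. Of 19 on the side of glycolysis and glycogen, 8 were higher and 3 lower in Ova, and 6 higher and 1 lower in IC. Pgm2l1, a glucose 1,6-bisphosphate synthase, rose by log2 1.10 ± 0.10 in Ova (adjusted p = 1.25e-05) and 1.21 ± 0.10 in IC (adjusted p = 4.37e-06). Adpgk, an ADP-dependent glucokinase, rose by 0.82 ± 0.12 (adjusted p = 0.000269) and 0.84 ± 0.12 (adjusted p = 0.00016). The glucose transporter gene Slc2a3 fell, with log2 fold changes of -1.80 ± 0.20 in Ova (adjusted p = 3.46e-05) and -1.86 ± 0.19 in IC (adjusted p = 1.95e-05), whereas Slc2a1 above was higher or not called. Eno3, the muscle enolase, had -1.12 ± 0.39 in Ova (adjusted p = 0.0445), a call lost in 10 of 12 fits without 1 library, to 0.142 without iBET Ova mouse B.

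Around pyruvate and the TCA cycle, 7 of 28 genes were higher and 1 lower in Ova, and 6 higher and 1 lower in IC. Of all genes, 17.1% were higher and 14.2% lower in Ova, and 19.0% and 15.8% in IC. Acly, the ATP citrate lyase that makes cytosolic acetyl-CoA, rose by log2 0.77 ± 0.09 in Ova (adjusted p = 5.67e-05) and 0.72 ± 0.09 in IC (adjusted p = 7.51e-05). In Ova, Me1, the cytosolic malic enzyme, had -0.74 ± 0.26 (adjusted p = 0.0489), a call lost in 6 of 12 fits, to 0.176 without DMSO Ova mouse C. In IC, Pdp1, the pyruvate dehydrogenase phosphatase, rose by 0.76 ± 0.18 (adjusted p = 0.0059), and Pdk2, another pyruvate dehydrogenase kinase, had -1.20 ± 0.37 (adjusted p = 0.0236), a call lost in 2 of 12 fits, to 0.0955 without DMSO IC mouse B. None of 7 further pentose phosphate genes was called in either comparison in edgeR, with 0 and 1 at an unadjusted p under 0.05, against 41.6% of all genes in Ova and 44.4% in IC.

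Of 18 HIF pathway genes, 11 were higher and 1 lower in Ova, and 11 higher and 2 lower in IC. The shares of all genes were 17.1% higher and 14.2% lower in Ova, and 19.0% and 15.8% in IC. Epas1, which encodes HIF-2 alpha, rose by log2 2.07 ± 0.29 in Ova (adjusted p = 0.000242) and 2.09 ± 0.28 in IC (adjusted p = 0.000137). Vhl, whose product marks HIF alpha subunits for degradation, rose by 1.10 ± 0.23 (adjusted p = 0.00346) and 1.15 ± 0.23 (adjusted p = 0.00195). The HIF targets among those called lower were Ankrd37, at -0.97 ± 0.28 in Ova (adjusted p = 0.0205) and -0.91 ± 0.26 in IC (adjusted p = 0.018), and Vegfa, the angiogenic growth factor, at -1.35 ± 0.32 in IC (adjusted p = 0.00753). Other genes of this list were higher. Ero1l was at 58.0, 46.0 and 57.0 CPM in DMSO Ova and 92.8, 89.0 and 94.3 in iBET Ova. With IC it was at 51.5, 57.2 and 66.3 CPM in DMSO and 98.2, 103 and 109 with iBET. P4ha1 was at 85.3, 88.5 and 90.9 CPM in DMSO Ova and 134, 131 and 128 in iBET Ova. With IC P4ha1 was at 82.1, 88.5 and 96.1 CPM in DMSO and 141, 137 and 131 with iBET. The Ankrd37 calls were lost in 3 of 12 fits each, to 0.09 without DMSO Ova mouse C and 0.0626 without DMSO IC mouse C. They were also lost whichever mouse was left out (adjusted p = 0.124, 0.0726 and 0.103 in Ova, and 0.0874, 0.0544 and 0.148 in IC), as was the Ova call of Eno3 (0.0843, 0.335 and 0.114). Without mouse B the calls of Vegfa in IC (0.0805), Vhl in Ova (0.0523), Me1 in Ova (0.358) and Pdk2 in IC (0.134) were lost, and without mouse C those of Pdp1 in IC (0.0576), Me1 in Ova (0.0693) and Pdk2 in IC (0.0948). With IC against Ova, 1 of the 72 genes was called in DMSO, Tigar, a fructose bisphosphatase that opposes glycolysis (log2 0.54), and 0 in iBET in edgeR, where 9 of the 72 had an unadjusted p under 0.05. Of all genes, 1.22% were called in DMSO and 0.349% in iBET, where 7.5% had an unadjusted p under 0.05.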

How the data were processed

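RNA-seq counts of 12 BMDM libraries were analysed. The authors trimmed reads with Trim Galore, aligned them to mm10 with HISAT2 and assigned them to genes with featureCounts, and they deposited raw counts per gene symbol. Annotation, strand setting and the handling of reads with several alignments are not given in the sources used here. A second deposited table, those counts divided by size factors, was not used.

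Counts were filtered with filterByExpr (minimum count 10) and fitted in edgeR 4.0.16 (R 4.3.3) over all 11468 genes kept, with TMM factors, a robust quasi-likelihood fit and 1 term per group. There were 5 contrasts, with two-sided p-values and the Benjamini-Hochberg adjustment taken over all genes. SE was derived from the F statistic, as the size of the log2 fold change over the root of F. Depth was 7.55 M to 17.4 M counts, and 3 mice per group limit precision. Levels per kb use union exon lengths of GENCODE vM21 on GRCm38. Alternatives were DESeq2 1.42.0, its size factors, 2 filters, mouse as a block, 1 surrogate variable (sva 3.50.0), the compared groups alone, and omission of libraries and mice. Removal of Rn45s was also tried, and, after seeing the data, the block without DMSO Ova mouse A. The fit was tested on simulated data.

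The labels give each library's mouse, so libraries pair by mouse. The 18 same-mouse pairs correlated at -0.0725 to 0.542 (median 0.263) in their deviations from group means, against a median of -0.134 in the 36 other pairs. Deviations within a group sum to 0, so positive values in same-mouse pairs push the other pairs below 0. The other pairs are therefore not separate evidence of pairing.

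Members and lists were chosen with earlier results of these data known. A member was given in every library if called in any contrast, if highest or lowest per kb, or if an isoenzyme of a called member. The members Pgk1, Pgam1, Eno1, Sucla2, Gpi1 and Cs were added after their values were seen. Of the other pathway genes, the 2 largest rises and falls per list and iBET contrast were named, among those called and moving alike in 3 of 3 mice, and Tigar as the 1 called with IC. Ero1l and P4ha1 were added after their values were seen. A gene that this rule selects is not reported here.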

Additional observations from a re-analysis of the deposited data

How the results depend on the processing

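With iBET in Ova, 16 members were called. The count was 9 with the compared groups alone, and 3 to 17 when 1 library or 1 mouse was left out. With iBET in IC, 17 were called, and 6 to 18 when 1 library or mouse was left out. In both, DESeq2, its size factors in edgeR, other filters, 1 surrogate variable and removal of Rn45s stayed within 1.5 times the count, at 13 to 18 in Ova and 14 to 22 in IC. With mouse as a replicate block the counts were 23 and 25, and with the block and without DMSO Ova mouse A, an alternative chosen after seeing the data, 13 and 25. For IC against Ova in DMSO, 1 member was called, against 3 in DESeq2, 2 with the mouse block, 4 with 1 surrogate variable, 0 with the compared groups alone, 2 with the block and without DMSO Ova mouse A, and 0 to 1 when 1 library or mouse was left out. In iBET 0 were called, against 1 in DESeq2, 1 with the mouse block, 1 with 1 surrogate variable, 1 with the compared groups alone, 1 with the block and without that library, and 0 to 1 when 1 library or mouse was left out. The causes were not tested. The interaction could not be fitted with compared groups alone, since it uses all 4. The block lost no call of a member in either iBET comparison.

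Directions that turned were small. When 1 library or mouse was left out, the log2 fold change of Pfkm with iBET in Ova ran from -0.234 to 0.0228, that of Slc16a1 with IC in iBET from -0.0787 to 0.0774 (-0.00873 with 1 surrogate variable), and that of Pfkm with IC in iBET from -0.28 to 0.094. The share of Hk1 with iBET in IC changed by 0.912 percentage points without length scaling and by -0.857 to 1.15 with a mouse left out, and that of Pfkm by 0.229 and by -1.22 to 1.01. Of the 12 members called in neither iBET comparison, 5 in Ova and 6 in IC changed direction in at least 1 of 24 alternatives. The 1.77 M counts outside Rn45s in DMSO Ova mouse A, and levels near 1 CPM for Ldhb, limit the precision of the Ova comparison.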
